A study of Mus musculus with 9 samples.

Results

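The genes described here are 60 genes of mitosis, chosen by symbol from a list of cyclins and kinases of mitotic entry, centromere and kinetochore proteins, spindle checkpoint proteins, mitotic kinesins, condensin subunits and proteins of the spindle, the cleavage furrow and anaphase. All 60 were found among the 23279 gene rows of the deposited tables, and all 60 were among the 10878 rows that were tested, because each had a mean of at least 1 raw FPKM (a read level divided by transcript length and library size). The RNA came from primary mouse cultures labelled as pro-B cells, in 9 libraries. The 3 Ts1Rhr libraries came from mice with an extra copy of a segment that corresponds to a Down syndrome critical region, on an FVB × C57BL/6 F1 background. The 3 HMGN1_OE libraries came from C57BL/6 mice labelled as overexpressing Hmgn1, a gene of that segment for a nucleosome-binding protein, and the 3 WT libraries from wild-type littermates, for which the labels give no background. Strain and genotype therefore cannot be told apart in any of the comparisons, and the labels do not name the promoter that drives Hmgn1. In all groups the marrow donors were 6 to 8 weeks old, the marrow cells formed colonies for 7 days in interleukin-7 methylcellulose, and those colonies were pooled. The labels call the libraries biological replicates without naming the animals, so p-values measure only the spread between these samples.

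Cells that divide make most of these transcripts late in the cell cycle. Condensins and topoisomerase II compact the chromosomes, the kinetochore that assembles on the centromere binds spindle microtubules, and the checkpoint holds the cell in metaphase until every kinetochore is attached. Pro-B cells are the early B-lineage progenitors of the bone marrow, and they proliferate in response to interleukin-7. Many promoters of genes of this kind carry a CHR element (cell cycle genes homology region), which the DREAM complex and its relatives with B-MYB and FOXM1 bind, and CCAAT boxes, which NF-Y binds.

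Promoters of 5 members are shown because 3 of them belong to genes that passed the test in Ts1Rhr and the other two to abundant members that did not. Each runs from 200 bases before to 30 bases after the annotated start, 5′ to 3′ in the direction of transcription. Sequences and positions are RefSeq's for GRCm38.p6, which is not the mm9 build of the files. Capitals mark TTTGAA, the core of the CHR element, CCAAT, or 1 of the E2F motifs TTTGGCGC, TTTCCCGC, TTTGCCGC and TTTCGCGC, on either strand. A motif may thus stand as its reverse complement, such as TTCAAA for the CHR core. The regions are chr11:40733408-40733637 on the minus strand for Hmmr, chr8:116921540-116921769 on the plus strand for Cenpn, chr2:109280538-109280767 on the plus strand for Kif18a, chr9:70421525-70421754 on the minus strand for Ccnb2 and chr11:99024160-99024389 on the minus strand for Top2a.
Hmmr: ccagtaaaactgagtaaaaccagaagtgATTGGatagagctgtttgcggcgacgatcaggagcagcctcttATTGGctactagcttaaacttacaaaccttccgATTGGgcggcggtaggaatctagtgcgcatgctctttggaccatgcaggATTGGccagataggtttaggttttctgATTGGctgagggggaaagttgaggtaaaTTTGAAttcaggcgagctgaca
Cenpn: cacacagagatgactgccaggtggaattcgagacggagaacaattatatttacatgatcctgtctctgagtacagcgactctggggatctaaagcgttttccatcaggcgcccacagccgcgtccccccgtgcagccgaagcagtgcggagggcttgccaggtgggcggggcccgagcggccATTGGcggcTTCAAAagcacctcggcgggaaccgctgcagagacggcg
Kif18a: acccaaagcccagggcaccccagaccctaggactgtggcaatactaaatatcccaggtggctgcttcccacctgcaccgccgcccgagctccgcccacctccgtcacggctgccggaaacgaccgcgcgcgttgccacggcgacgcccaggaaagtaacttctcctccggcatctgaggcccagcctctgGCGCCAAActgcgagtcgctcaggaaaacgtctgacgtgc
Ccnb2: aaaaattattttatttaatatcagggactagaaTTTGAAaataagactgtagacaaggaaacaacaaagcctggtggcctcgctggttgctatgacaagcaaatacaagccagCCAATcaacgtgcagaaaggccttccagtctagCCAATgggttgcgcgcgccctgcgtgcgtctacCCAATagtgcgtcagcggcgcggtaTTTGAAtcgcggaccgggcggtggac
Top2a: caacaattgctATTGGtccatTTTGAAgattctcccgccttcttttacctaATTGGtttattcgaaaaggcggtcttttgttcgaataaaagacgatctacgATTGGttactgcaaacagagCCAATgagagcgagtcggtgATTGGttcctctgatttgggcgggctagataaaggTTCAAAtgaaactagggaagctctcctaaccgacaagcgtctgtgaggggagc

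RefSeq promoters of 300 bases, from 250 before to 50 after the start, were matched for 51 of the 60 members, as 57 promoters. The CHR letters stood in 37 of these 57 promoters (64.9%), against 12% of the 10408 promoters of tested genes and 17.9% of all 32851 promoters. CCAAT stood in 44 (77.2%), against 38% and 37.4%. Both stood together in 31 (54.4%), against 4.85% and 6.95%, while an E2F motif stood in 5 (8.77%), against 4.09% and 2.26%. The Kif18a promoter held an E2F motif and neither of the others. In 33 member promoters (57.9%) a CHR core began within 60 bases of the start, against 3.44% and 5.5%, a window chosen after the positions had been seen. The 34 members with a CHR core had a median log2 fold change of 0.71 in Ts1Rhr against WT, and the 17 without one a median of 0.67. For HMGN1_OE against WT these medians were 0.66 and 0.68. Within the members, promoters with and without the CHR letters thus had nearly equal medians. A match describes letters in a window and not a site of binding.

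**Figure D1:**
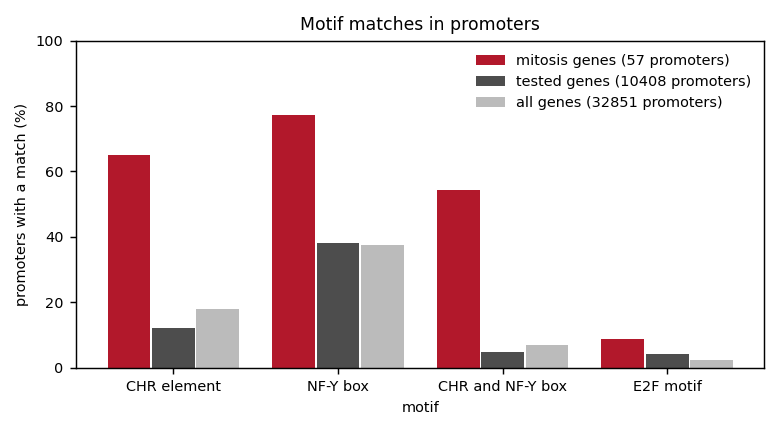
Share of 300-base RefSeq promoters (y axis, percent) that hold each motif (x axis), in the mitosis genes, the tested genes and all genes, with the number of promoters in the legend. The mitosis genes reach 64.9% for the CHR element and 77.2% for the NF-Y box (CCAAT), against 12% and 38% of the promoters of tested genes.

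The members were well expressed. The median of their mean normalised FPKM over the 9 libraries was 42.1, against 13.4 over all tested rows, and 52 of 60 lay above 13.4. The highest means belonged to Top2a (366 normalised FPKM), Ube2c (159), Kif11 (159), Birc5 (135) and Ccnb2 (127), and the lowest to Ska1 (5.37), Kif18a (7.79), Spc24 (8.53), Sgol2 (10.97) and Ska3 (11.7). No member was listed at 0 in any library, and the lowest raw value was 2.08 FPKM. Depth is unknown, since the tables hold no counts.

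Facts of the whole series bear on what follows. The library medians of all tested genes lay within 3.66 to 3.69 on the log2 raw FPKM scale and within 3.39 to 4.09 on the log2 normalised scale. Normalised FPKM are the main values below, and the labels say that spike-ins were added for scaling per cell. The step from raw to normalised FPKM was not 1 factor per library: in Ts1Rhr replicate 1 the ratio was 1.27 for the low gene Ska1 and 0.904 for the high gene Top2a, and in WT replicate 1 it was 0.946 and 1.37. Fold changes of low and high genes can therefore differ between the tables. WT replicate 1 had 10510 raw FPKM of the ribosomal RNA row Rn45s, against 325 to 4495 in the other libraries. Ts1Rhr replicate 3 had 0.443 raw FPKM of Xist and 41.8 of the Y-linked Ddx3y. In the others Xist lay between 94.2 and 193 and Ddx3y was at most 0.0642. These are the levels of male cells in that library and of female cells in the others, so sex was mixed within Ts1Rhr. The part of sex in the results was not tested. Hmgn1 had 127, 122 and 115 normalised FPKM in Ts1Rhr and 74.8, 71.5 and 46.9 in WT, a difference that missed the threshold (limma, adjusted p = 0.0909) and passed on raw FPKM (limma, adjusted p = 0.00923). In HMGN1_OE it had 76.9, 101 and 75.8, against the same WT values (limma, adjusted p = 0.54). Raw values were 77.2, 71.9 and 73.4 in HMGN1_OE and 60.1, 67.3 and 58.5 in WT (limma, adjusted p = 0.345). Every HMGN1_OE library thus lay above every WT library on both scales, narrowly on normalised FPKM, but the difference missed the threshold on both.

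The pro-B label was checked against 20 pro-B markers, all of which were above 0 in at least 1 library and passed the filter on low values. Their summed level was 2754 to 3202 normalised FPKM in Ts1Rhr, 3920 to 4243 in HMGN1_OE and 1859 to 3171 in WT. The medians of their log2 fold changes were 0.52 in Ts1Rhr and 0.62 in HMGN1_OE against WT. In Ts1Rhr 1 of 20 passed as higher, Kit, against 0.423% of all rows, and 8 of 20 on raw FPKM, against 4.29%. Markers of other cells were present as well. Of 25 myeloid markers, none was at 0 in all libraries, and their sum was 13495 to 16746 normalised FPKM in Ts1Rhr, 14562 to 50486 in HMGN1_OE and 20967 to 71425 in WT. Lyz2 alone made up most of that sum in every library, with 56076 of 71425 in WT replicate 1. Of the 23 myeloid markers tested, 0 were higher in Ts1Rhr than in WT, with a median log2 fold change of -0.97 and 0 calls by limma. On raw FPKM 10 were called lower, against 4.56% of all rows. In HMGN1_OE the myeloid median was -0.41. The 10 stromal markers summed to 14.7 to 31.7 in Ts1Rhr, 18.5 to 35.9 in HMGN1_OE and 87.2 to 134 in WT. Of the 7 tested, 6 passed as lower in Ts1Rhr and 5 in HMGN1_OE, against 0.147% and 0.0827% of all rows. On raw FPKM 6 and 2 passed as lower, against 4.56% and 0.0368%. Of 9 erythroid markers, the defining Hbb-b1, Hbb-b2, Hba-a1, Hba-a2 and Car1 were listed at 0 in every raw library, and the 1 tested, Car2, rose in Ts1Rhr by 1.21 on the log2 scale (limma, adjusted p = 0.041). Of 8 T and NK cell markers, 5 were below 1 raw FPKM in every library, and the 1 tested did not pass. Of 4 plasma cell markers, all tested, Igj fell in both mutant groups. The part of these other cells in the results below was not tested. In bulk samples, fewer cells of a type and less RNA per cell cannot be told apart.

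On both deposited scales the 60 genes together stood higher in every mutant library than in any WT library. Scaling libraries to the pro-B markers lowered the log2 fold change of every gene in HMGN1_OE against WT by the same amount. The median over the members then was -0.13, still above the median of all tested genes. The 60 genes summed to 3837, 3781 and 3213 normalised FPKM in the Ts1Rhr libraries, 3275, 3906 and 3834 in HMGN1_OE and 2335, 2875 and 1875 in WT. The lowest mutant sum was that of Ts1Rhr replicate 3, and the highest WT sum was that of WT replicate 2. As a share of the raw FPKM of all rows, they took 0.800%, 0.846% and 0.749% in Ts1Rhr, 0.660%, 0.553% and 0.828% in HMGN1_OE and 0.324%, 0.547% and 0.469% in WT, and the groups again did not overlap with WT. The lowest of the 9 libraries was a WT library for every one of the 60 genes on the normalised scale, replicate 3 for 43 genes and replicate 1 for 17. On raw FPKM a WT library was lowest for 57 genes, replicate 1 for 49 and replicate 3 for 8, and a mutant library was lowest for the rest.

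**Figure D2:**
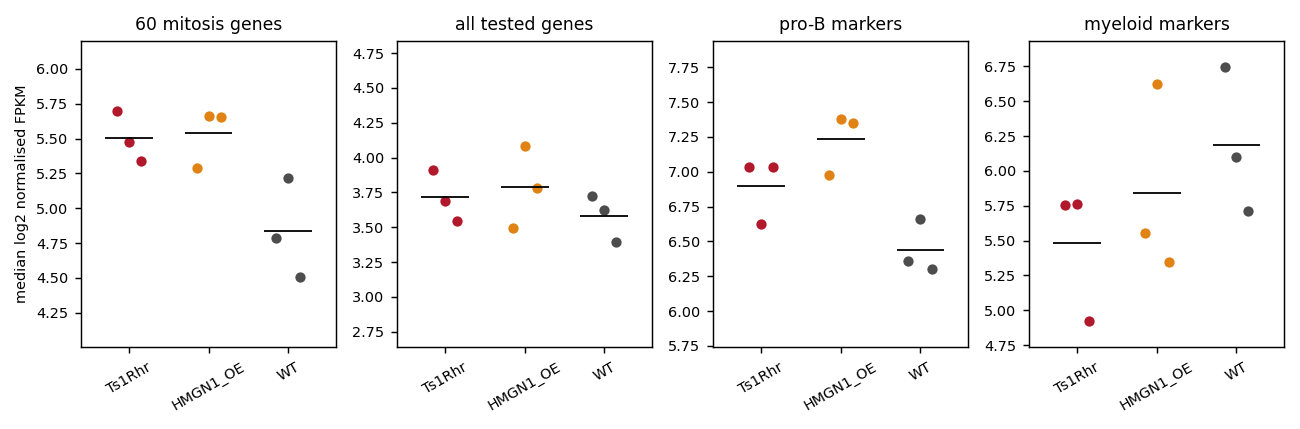
Median log2 normalised FPKM per library (y axes, each spanning the same range) over the mitosis genes, all tested genes, pro-B markers and myeloid markers, with 1 point per library and a line at the group mean. Every Ts1Rhr and HMGN1_OE library lies above every WT library for the mitosis genes, while the medians of all tested genes overlap between groups.

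The first comparison, Ts1Rhr against WT, sets cultures with the extra segment against those of wild-type littermates. Segment and strain cannot be told apart here, since the labels do not give the WT background. Ts1Rhr replicate 3 had the Xist and Ddx3y levels of male cells, unlike the other libraries. The test was limma on log2 normalised FPKM with all 9 libraries in 1 fit, and a gene was called at an adjusted p below 0.05 (Benjamini-Hochberg over 10878 rows). Of the 60 genes, 5 rose in Ts1Rhr and none fell, against 0.423% of all tested rows called higher, 0.147% called lower and 0.57% called either way. The 5 were Hmmr, Cenpn, Ndc80, Ska1 and Kif18a. The other 55 did not pass, although 58 of 60 log2 fold changes were above 0, with a median of 0.69 and a range of -0.04 to 1.53, against a median of 0.12 over all tested genes. At an unadjusted p below 0.05, 41 members were higher and 0 lower, against 13.2% of all rows higher and 6.3% lower. In 43 members every Ts1Rhr library lay above every WT library, against 21.7% of all rows, and in 0 members the reverse held, against 8.43%.

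The count of calls depended on the table and on single libraries, while the median varied less. On raw FPKM, 33 of 60 members were called higher and 0 lower, against 4.29% of all rows called higher, 4.56% lower and 8.85% either way, with a median of 0.72 against 0.01 over all rows, and 49 did not overlap with WT (19.1% of all rows). On the normalised scale the count was 0 without Ts1Rhr replicate 2, Ts1Rhr replicate 3 or WT replicate 3, and 1 without Ts1Rhr replicate 1, WT replicate 1 or WT replicate 2. It was 11 without HMGN1_OE replicate 1 and 8 without HMGN1_OE replicate 2, although neither library is in the contrast. The share of all rows called is not given here for the leave-outs. Over these leave-outs the median was 0.58 to 0.84. On raw FPKM the count was 0 without Ts1Rhr replicate 2, Ts1Rhr replicate 3, WT replicate 1 or WT replicate 3, and 5 without Ts1Rhr replicate 1. When libraries were scaled to the same median of the pro-B markers, 47 members were above 0 and 13 below, with a median of 0.23 against -0.34 over all tested genes, and 1 member was called.

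**Figure D3:**
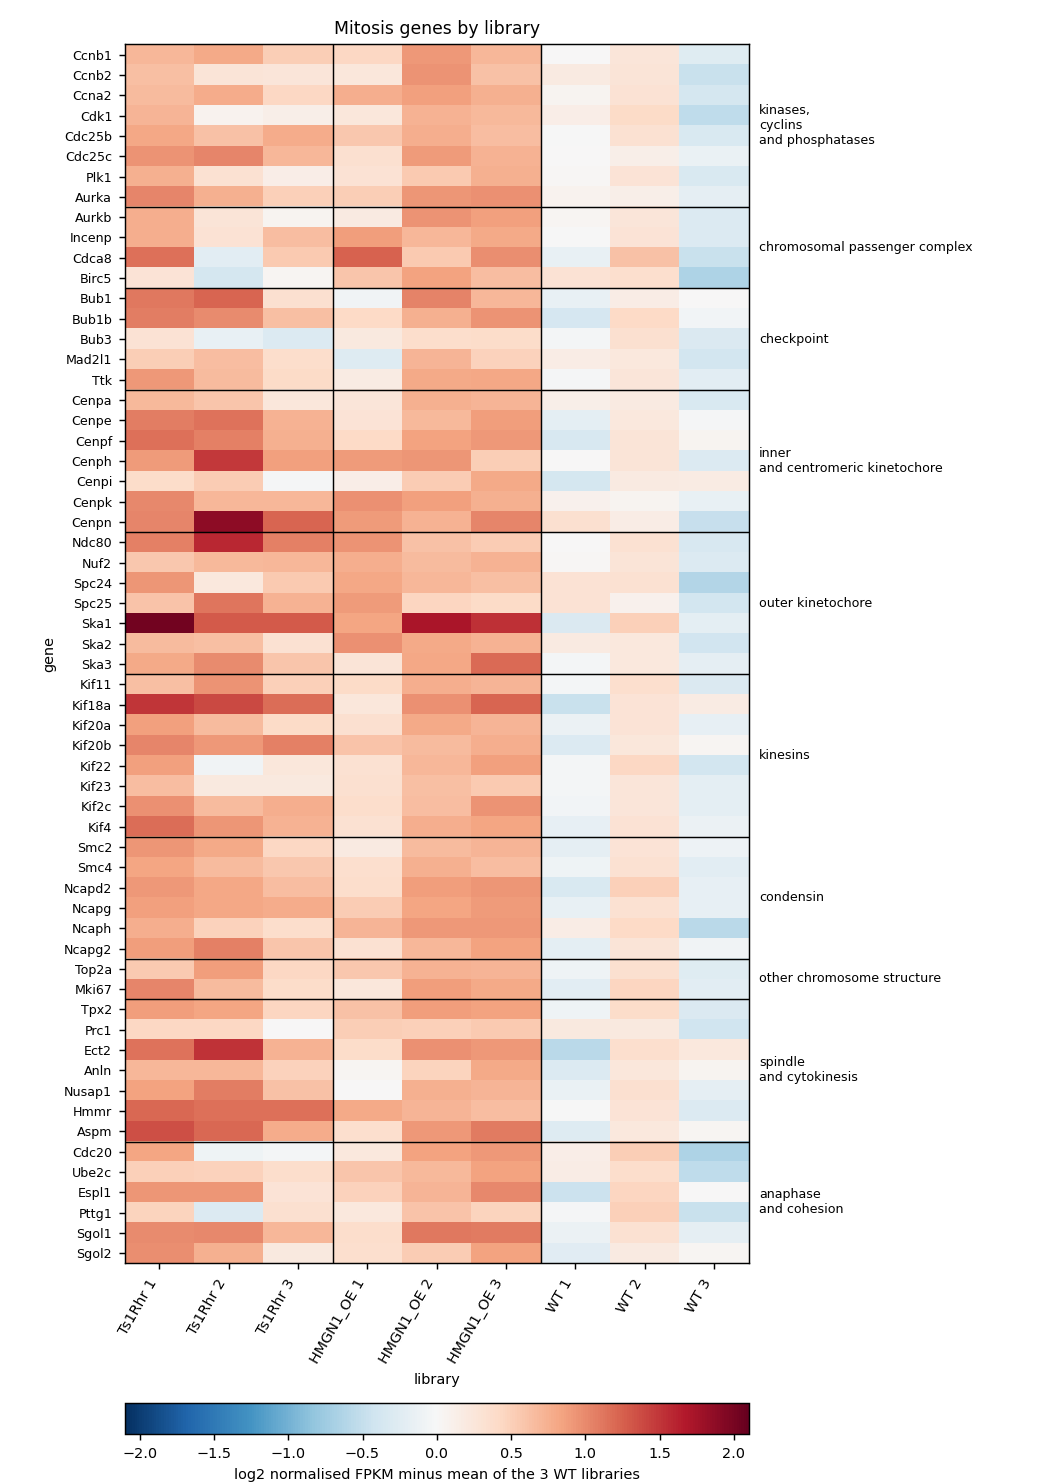
Log2 normalised FPKM of each mitosis gene (rows, grouped by role) in each of the 9 libraries (columns), minus the mean of the 3 WT libraries, on a colour scale centred at 0. Red tones fill most of the Ts1Rhr and HMGN1_OE columns, and Ts1Rhr replicate 2 stands out as dark for Cenpn and Ndc80 and pale or blue for Cdca8, Birc5, Kif22 and Pttg1.

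By role, the median log2 fold change in Ts1Rhr on normalised FPKM was highest in the inner and centromeric kinetochore (0.98, 7 genes), then in spindle and cytokinesis genes (0.84, 7), the outer kinetochore (0.79, 7), condensin (0.75, 6) and kinesins (0.74, 8). Checkpoint genes (0.66, 5), topoisomerase and Ki-67 (0.65, 2), kinases, cyclins and phosphatases (0.65, 8), anaphase and cohesion genes (0.55, 6) and the chromosomal passenger complex (0.43, 4) had lower medians. Every role was above the median of all tested genes. The inner and centromeric list also holds Cenpe and Cenpf, whose proteins lie at the outer kinetochore. Its rank is therefore not that of the inner kinetochore alone. The order depended on the table. On raw FPKM the inner and centromeric list (0.91), spindle and cytokinesis genes (0.84) and topoisomerase and Ki-67 (0.80) came first. They were ahead of condensin (0.79), kinesins (0.77) and the outer kinetochore (0.73). The ranges of the roles overlapped, from -0.02 to 0.57 in the chromosomal passenger complex to 0.30 to 1.38 in the inner and centromeric list. The difference between roles was not tested.

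Mitotic entry is driven by Cdk1 with its cyclins. Of the 8 genes of this role, 0 passed on the normalised scale, against 0.57% of all rows. On raw FPKM 5 passed, against 8.85%. Ccnb2, which encodes cyclin B2, had 152, 118 and 117 normalised FPKM in Ts1Rhr, 116, 189 and 150 in HMGN1_OE and 112, 119 and 70.9 in WT. Its groups overlapped, and the log2 fold change of 0.38 in Ts1Rhr had an adjusted p of 0.468 (limma). Cdk1, the kinase itself, had 66.6, 42.6 and 44.4 in Ts1Rhr, 48.1, 67.7 and 64.9 in HMGN1_OE and 44.8, 53.6 and 28.0 in WT. Here Ts1Rhr replicate 1 stood high and the other two lay inside the WT range, with a log2 fold change of 0.30 (limma, adjusted p = 0.57). Cdc25c, a phosphatase that activates Cdk1, had 17.3, 18.2 and 14.5 in Ts1Rhr, 11.35, 16.6 and 14.9 in HMGN1_OE and 9.0, 9.78 and 8.17 in WT. All 6 mutant libraries lay above the WT libraries, and the Ts1Rhr difference of 0.89 missed the threshold on the normalised scale (limma, adjusted p = 0.08) and passed on raw FPKM (limma, adjusted p = 0.0309).

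The chromosomal passenger complex corrects wrong attachments through the Aurora B kinase. In it 0 of 4 genes passed on normalised FPKM or on raw FPKM (0.57% and 8.85% of all rows). Incenp, its scaffold, had 65.4, 47.5 and 60.9 normalised FPKM in Ts1Rhr, 71.4, 62.5 and 66.9 in HMGN1_OE and 38.6, 47.3 and 31.7 in WT. Neither mutant group overlapped with WT, although Ts1Rhr replicate 2 was barely above WT replicate 2, and the log2 fold change was 0.57 (limma, adjusted p = 0.213). Birc5, the subunit survivin, had 134, 84.7 and 113 in Ts1Rhr, 165, 198 and 172 in HMGN1_OE and 136, 140 and 70.0 in WT. The Ts1Rhr libraries lay inside the WT range and the HMGN1_OE libraries above it. Its Ts1Rhr log2 fold change was -0.02 (95% CI -0.66 to 0.62, limma, adjusted p = 0.98), and its sign turned to 0.10 on raw FPKM. Cdca8, the subunit borealin, had 39.9, 15.3 and 26.3 in Ts1Rhr and 16.1, 27.5 and 13.0 in WT, with the 3 Ts1Rhr libraries spread more widely than the difference of means.

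Among the checkpoint genes, 0 of 5 passed on the normalised scale and 2 on raw FPKM (0.57% and 8.85% of all rows). Bub1b, which encodes the inhibitor BubR1, had 57.6, 54.2 and 42.1 normalised FPKM in Ts1Rhr, 36.4, 45.9 and 52.6 in HMGN1_OE and 21.3, 36.6 and 26.2 in WT. The Ts1Rhr and WT libraries did not overlap, and the log2 fold change of 0.90 passed only on raw FPKM (limma, adjusted p = 0.105 on normalised FPKM and 0.046 on raw FPKM). Bub3, the partner of Bub1 and BubR1, had 62.2, 45.1 and 41.1 in Ts1Rhr, 58.0, 65.1 and 65.4 in HMGN1_OE and 48.8, 63.6 and 40.7 in WT. The groups overlapped, and its Ts1Rhr log2 fold change of -0.04 was the lowest of the 60 genes (95% CI -0.58 to 0.49, limma, adjusted p = 0.942). Mad2l1, the Mad2 protein that holds Cdc20 back, had 84.4, 91.6 and 75.7 in Ts1Rhr, 48.5, 96.3 and 82.0 in HMGN1_OE and 65.4, 68.7 and 45.2 in WT. Its Ts1Rhr libraries lay above all WT libraries, with a log2 fold change of 0.51 (limma, adjusted p = 0.327).

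The inner kinetochore links centromeric chromatin to the microtubule-binding outer layer. The 7 genes counted here also include Cenpe and Cenpf, whose proteins lie at the outer kinetochore. Of the 7, 1 passed on the normalised scale and 5 on raw FPKM (0.57% and 8.85% of all rows). Cenpn, whose protein binds nucleosomes with the centromeric histone Cenpa, had 50.2, 91.3 and 57.7 normalised FPKM in Ts1Rhr, 45.7, 41.0 and 50.4 in HMGN1_OE and 31.0, 27.5 and 17.7 in WT. All mutant libraries were above the WT libraries, and Ts1Rhr replicate 2 stood far above its group. The mean was 66.4 ± 21.9 in Ts1Rhr and 25.4 ± 6.93 in WT (SD, n = 3 each), a log2 fold change of 1.38 with a standard error of 0.28 (limma, adjusted p = 0.0351). Without Ts1Rhr replicate 2 this gene had a log2 fold change of 1.12 and did not pass (limma, adjusted p = 0.205, in a range of 0.0202 to 0.205 over the alternatives). Cenph, a subunit of the same constitutive network, had 65.3, 99.0 and 63.8 in Ts1Rhr, 65.7, 66.9 and 50.5 in HMGN1_OE and 35.6, 42.6 and 28.8 in WT. Again no mutant library overlapped with WT and replicate 2 of Ts1Rhr was high, and the log2 fold change of 1.08 missed the threshold (limma, adjusted p = 0.0663) and passed on raw FPKM (limma, adjusted p = 0.0309). Cenpi, another subunit, had 19.0, 21.0 and 14.2 in Ts1Rhr, 15.8, 20.9 and 25.2 in HMGN1_OE and 11.3, 16.4 and 16.4 in WT. Its groups overlapped, with a log2 fold change of 0.30 (limma, adjusted p = 0.527).

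The 7 outer kinetochore genes encode the Ndc80 complex and the Ska complex that grip the microtubule. Of these, 2 passed on the normalised scale and 4 on raw FPKM (0.57% and 8.85% of all rows). Ndc80 had 73.7, 106 and 74.1 normalised FPKM in Ts1Rhr, 68.0, 54.5 and 51.1 in HMGN1_OE and 35.5, 44.4 and 28.2 in WT. The 3 groups did not overlap with each other, Ts1Rhr being highest. The mean was 84.7 ± 18.7 in Ts1Rhr and 36.0 ± 8.13 in WT (SD, n = 3 each), a log2 fold change of 1.24 with a standard error of 0.26 (limma, adjusted p = 0.0393). Nuf2, the partner of Ndc80 in the complex, had 97.9, 106 and 107 in Ts1Rhr, 112, 104 and 110 in HMGN1_OE and 67.0, 79.3 and 53.8 in WT. Both mutant groups were tight and above WT, and the Ts1Rhr log2 fold change of 0.65 passed only on raw FPKM (limma, adjusted p = 0.169 on normalised FPKM and 0.0397 on raw FPKM). Ska1 had the lowest mean level of the 60 genes and the largest log2 fold change on normalised FPKM, whereas Cenpn had the largest on raw FPKM (1.39, against 1.28 for Ska1). Its values were 9.80, 5.91 and 5.90 in Ts1Rhr, 4.29, 7.96 and 7.03 in HMGN1_OE and 1.96, 3.43 and 2.103 in WT. No mutant library overlapped with WT, and the mean was 7.20 ± 2.25 in Ts1Rhr and 2.498 ± 0.807 in WT (SD, n = 3 each), a log2 fold change of 1.53 with a standard error of 0.33 (limma, adjusted p = 0.0481). Ska2, from the same complex, had 65.9, 64.4 and 51.9 in Ts1Rhr, 80.1, 71.7 and 68.3 in HMGN1_OE and 47.1, 48.1 and 31.3 in WT. Its groups did not overlap, HMGN1_OE being highest, and the Ts1Rhr log2 fold change was 0.55 (limma, adjusted p = 0.237).

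The 8 kinesins are motors that move along or take apart microtubules. Among them 1 passed on the normalised scale and 6 on raw FPKM (0.57% and 8.85% of all rows). Kif11, the motor that pushes the spindle poles apart, had 176, 219 and 162 normalised FPKM in Ts1Rhr, 150, 192 and 187 in HMGN1_OE and 111, 145 and 91.7 in WT. All 6 mutant libraries lay above the WT libraries, and the Ts1Rhr log2 fold change of 0.69 passed only on raw FPKM (limma, adjusted p = 0.189 on normalised FPKM and 0.0361 on raw FPKM). Kif18a, which limits the movement of chromosomes at the spindle equator, had 12.2, 11.3 and 9.73 in Ts1Rhr, 5.12, 8.42 and 10.1 in HMGN1_OE and 3.14, 5.25 and 4.89 in WT. The Ts1Rhr libraries did not overlap with WT, whereas HMGN1_OE replicate 1 lay inside the WT range. The mean was 11.1 ± 1.26 in Ts1Rhr and 4.42 ± 1.13 in WT (SD, n = 3 each), a log2 fold change of 1.35 with a standard error of 0.29 (limma, adjusted p = 0.0481). Exons of Kif18a overlap those of Mettl15 on the opposite strand in the annotation, and no source used here says whether counting used strand, so reads of the pair cannot be told apart. Kif22, a kinesin of the chromosome arms, had 47.8, 24.99 and 31.1 in Ts1Rhr, 33.0, 43.0 and 47.9 in HMGN1_OE and 25.8, 35.5 and 20.1 in WT. Its groups overlapped, with a log2 fold change of 0.34 (limma, adjusted p = 0.519).

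The 6 condensin genes had log2 fold changes of 0.54 to 0.84 on normalised FPKM in Ts1Rhr. This was the narrowest range of the roles with over 2 genes on that scale. There 0 passed, and 4 passed on raw FPKM (0.57% and 8.85% of all rows). Smc4, an ATPase subunit shared by both condensins, had 144, 128 and 119 normalised FPKM in Ts1Rhr, 104, 136 and 127 in HMGN1_OE and 75.8, 101 and 69.5 in WT. The mutant libraries were all above WT, with a Ts1Rhr log2 fold change of 0.68 (limma, adjusted p = 0.172 on normalised FPKM and 0.0343 on raw FPKM). Ncaph, of condensin I, had 48.5, 39.8 and 36.8 in Ts1Rhr, 46.6, 53.3 and 53.5 in HMGN1_OE and 31.7, 37.9 and 19.1 in WT. Ts1Rhr replicate 3 lay below WT replicate 2, and the log2 fold change was 0.54 (limma, adjusted p = 0.268). Ncapg2, of condensin II, had 36.7, 41.3 and 29.8 in Ts1Rhr, 24.7, 32.3 and 35.9 in HMGN1_OE and 17.2, 24.0 and 19.0 in WT. Neither mutant group overlapped with WT, although HMGN1_OE replicate 1 was barely above WT replicate 2, and the Ts1Rhr log2 fold change was 0.84 (limma, adjusted p = 0.103 on normalised FPKM and 0.0394 on raw FPKM).

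Top2a, the topoisomerase that untangles sister DNA, had 385, 487 and 356 normalised FPKM in Ts1Rhr, 391, 440 and 432 in HMGN1_OE and 248, 334 and 222 in WT. No mutant library overlapped with WT, and the Ts1Rhr log2 fold change was 0.62 (limma, adjusted p = 0.264 on normalised FPKM and 0.0445 on raw FPKM). Mki67, the Ki-67 protein that coats mitotic chromosomes, had 133, 104 and 85.8 in Ts1Rhr, 77.7, 121 and 114 in HMGN1_OE and 56.6, 89.4 and 56.0 in WT. Both mutant groups overlapped with WT through WT replicate 2, and the Ts1Rhr log2 fold change of 0.69 did not pass on either table (limma, adjusted p = 0.203 on normalised FPKM and 0.0572 on raw FPKM).

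Of the 7 spindle and cytokinesis genes, 1 passed on the normalised scale and 5 on raw FPKM (0.57% and 8.85% of all rows). Hmmr, which encodes a microtubule-associated protein of the spindle poles also known as a hyaluronan receptor, had 63.3, 61.2 and 61.4 normalised FPKM in Ts1Rhr, 48.1, 45.3 and 43.3 in HMGN1_OE and 27.5, 33.8 and 22.6 in WT. Its libraries were tight within the mutant groups, and the 3 groups did not overlap with each other. The mean was 62.0 ± 1.16 in Ts1Rhr and 28.0 ± 5.58 in WT (SD, n = 3 each), a log2 fold change of 1.17 with a standard error of 0.23 (limma, adjusted p = 0.033), the lowest adjusted p of the members. Prc1, which bundles microtubules of the central spindle, had 79.0, 78.9 and 59.0 in Ts1Rhr, 84.3, 83.1 and 85.9 in HMGN1_OE and 67.5, 67.9 and 44.0 in WT. Ts1Rhr overlapped with WT and HMGN1_OE did not, and the Ts1Rhr log2 fold change was 0.29 (limma, adjusted p = 0.536). Aspm and Ect2 had log2 fold changes of 1.11 and 1.13 in Ts1Rhr and missed the threshold (limma, adjusted p = 0.0599 and 0.0758).

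Among the anaphase and cohesion genes, 0 of 6 passed on the normalised scale and 1 on raw FPKM (0.57% and 8.85% of all rows). Ube2c, a ubiquitin-conjugating enzyme that works with the anaphase-promoting complex, had 167, 165 and 154 normalised FPKM in Ts1Rhr, 177, 190 and 212 in HMGN1_OE and 132, 154 and 82.1 in WT. Ts1Rhr replicate 3, at 153.9, lay just above WT replicate 2, at 153.5, and the log2 fold change was 0.45 (limma, adjusted p = 0.378). Pttg1, the securin that keeps separase inactive, had 21.8, 12.9 and 19.9 in Ts1Rhr, 18.5, 23.9 and 22.01 in HMGN1_OE and 15.5, 22.3 and 11.5 in WT. All groups overlapped, with a Ts1Rhr log2 fold change of 0.17 (limma, adjusted p = 0.771). Sgol1, shugoshin, which protects cohesion at the centromere, had 28.8, 29.1 and 23.5 in Ts1Rhr, 18.7, 31.4 and 30.8 in HMGN1_OE and 13.3, 18.1 and 12.7 in WT. Neither mutant group overlapped with WT, and the Ts1Rhr log2 fold change was 0.90 (limma, adjusted p = 0.1 on normalised FPKM and 0.0325 on raw FPKM).

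**Figure D4:**
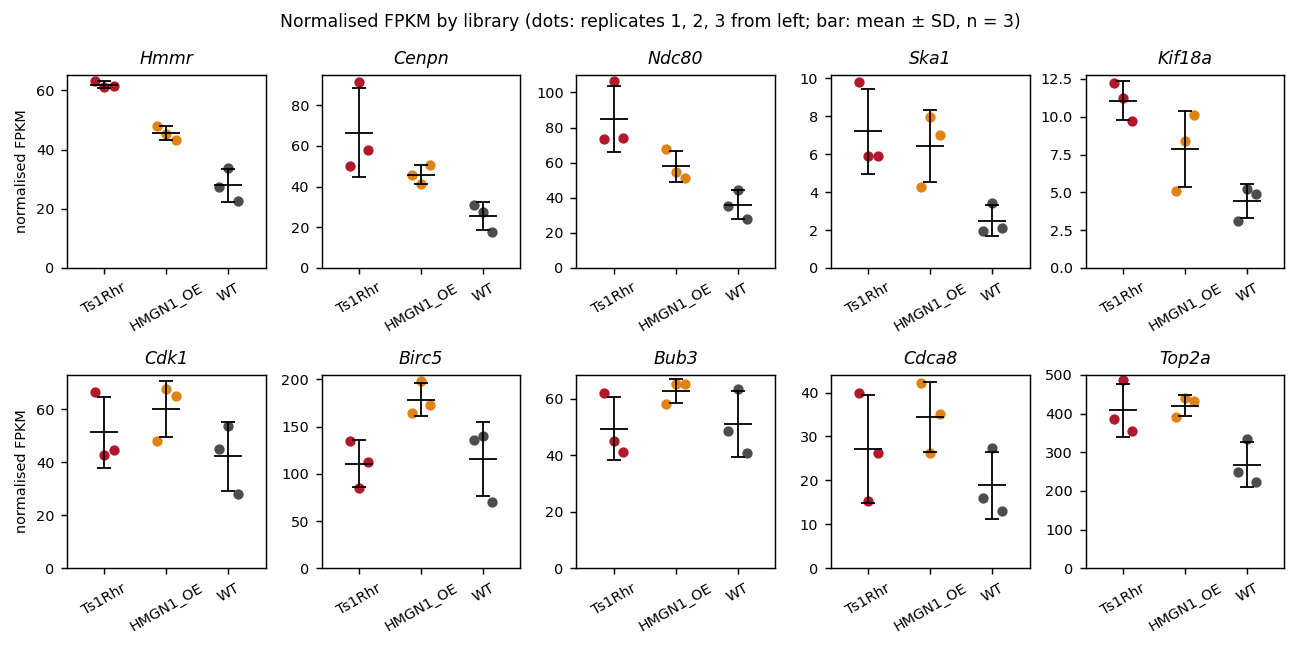
Normalised FPKM (y axes from 0) of the 5 genes called in Ts1Rhr (upper row) and of Cdk1, Birc5, Bub3, Cdca8 and Top2a (lower row), 1 point per library in replicate order, with bars for mean ± SD (n = 3). Ts1Rhr lies above WT without overlap in the upper row, while Birc5 and Bub3 overlap between Ts1Rhr and WT.

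Single libraries moved many members together. Within WT, replicate 2 was the highest library for 57 of 60 genes and replicate 3 the lowest for 43. Within HMGN1_OE, replicate 1 was lowest for 47, and within Ts1Rhr, replicate 1 was highest for 39 and replicate 3 lowest for 44. On raw FPKM the lowest library was WT replicate 1 for 50 genes in its group and HMGN1_OE replicate 2 for 49. After the group means were subtracted, the correlation of each gene with the mean of the other members over the 9 libraries had a median of 0.79 and reached 0.97 for Smc4. It was lowest for Spc25 (-0.06), Cenpn (0.24), Ndc80 (0.26) and Cenph (0.31). These points share libraries and their scaling, so the values are a description.

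Ts1Rhr replicate 2 departed from its group in both directions. Relative to the log2 mean of replicates 1 and 3, it was higher by 0.76 for Cenpn, 0.62 for Cenph, 0.59 for Ect2, 0.52 for Ndc80 and 0.45 for Spc25. The difference was -1.08 for Cdca8, -0.69 for Pttg1, -0.63 for Kif22, -0.54 for Birc5 and -0.51 for Spc24. On raw FPKM it was 0.77 for Cenpn and -1.09 for Cdca8. Genes of the kinetochore thus stood on both sides in that library, and the cause was not tested.

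The second comparison, HMGN1_OE against WT, used the same WT libraries. No member was called by limma, against 0.00919% of all rows called higher, 0.0827% called lower and 0.0919% either way, and the lowest adjusted p of the members was 0.184, for Ska1. At an unadjusted p below 0.05, 47 of 60 were higher and 0 lower, against 10.9% of all rows higher and 0.837% lower. All 60 log2 fold changes were above 0, from 0.30 to 1.36, with a median of 0.67 against 0.21 over all tested genes, but scaling to the pro-B markers turned the median to -0.13. In 41 members the HMGN1_OE libraries lay above every WT library, against 16.6% of all rows, and in 0 the reverse held, against 0.8%. On raw FPKM 0 were called (0.0368% of all rows), 37 were higher and 0 lower at an unadjusted p below 0.05 (7.18% and 7.39% of all rows), and the median was 0.49 against 0.01. On that scale 28 members lay above every WT library and 0 below (9.81% and 8.25% of all rows). With libraries scaled to the same median of the pro-B markers, 51 members were below 0 and 9 above, and the median over all tested genes was -0.59.

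The roles lay closer together in HMGN1_OE than in Ts1Rhr, with medians from 0.55 in the checkpoint genes to 0.74 in the chromosomal passenger complex, and no test of this was made. Ska1 averaged 6.42 ± 1.91 normalised FPKM in HMGN1_OE and 2.498 ± 0.807 in WT (SD, n = 3 each), a log2 fold change of 1.36 that did not pass (limma, adjusted p = 0.184). Cenpn had a log2 fold change of 0.88, Kif18a of 0.81, Hmmr of 0.72, Ndc80 of 0.70 and Birc5 of 0.69, and none of these passed (limma, adjusted p = 0.288 to 0.394). Birc5 averaged 178 ± 17.6 in HMGN1_OE and 115 ± 39.2 in WT.

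**Figure D5:**
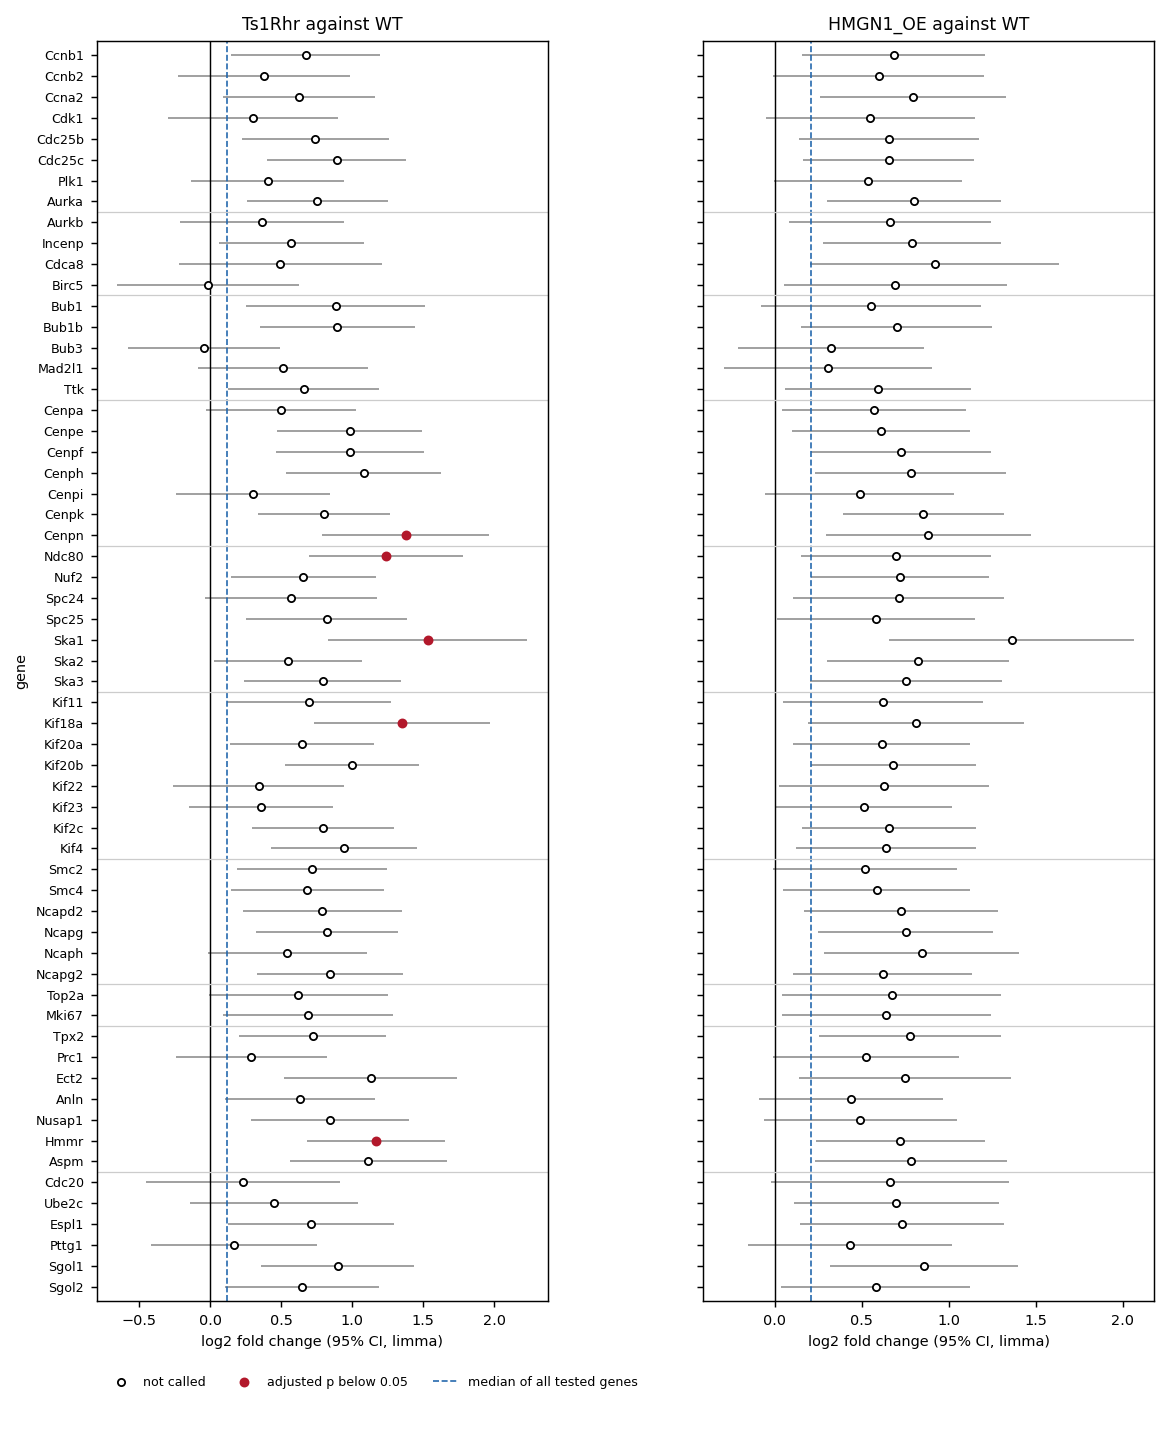
Log2 fold change on normalised FPKM (x axes) with its 95% confidence interval for each mitosis gene (rows), Ts1Rhr against WT on the left and HMGN1_OE against WT on the right, with filled points for an adjusted p below 0.05 and a dashed line at the median of all tested genes. The 5 filled points on the left are Cenpn, Ndc80, Ska1, Kif18a and Hmmr, and none is filled on the right. Scaling to the pro-B markers would move the points and the dashed line on the right to lower values by the same amount. The median of the members would then be -0.13.

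Set against each other, Ts1Rhr and HMGN1_OE did not differ in any member at the threshold, and no row of the whole table was called (0% of all rows). At an unadjusted p below 0.05, 0 members were higher, against 0.864% of all rows, and 1 was lower, against 3.5%. That gene was Birc5, which averaged 111 ± 24.9 normalised FPKM in Ts1Rhr and 178 ± 17.6 in HMGN1_OE (SD, n = 3 each). Its log2 fold change was -0.71 (95% CI -1.35 to -0.07, limma, adjusted p = 0.988). The median over the members was 0.04, against -0.09 over all tested genes, with 33 of 60 above 0. In 3 members, Hmmr, Ndc80 and Kif20b, all Ts1Rhr libraries lay above all HMGN1_OE libraries (1.79% of all rows), and in 4, Birc5, Ska2, Prc1 and Ube2c, all lay below (6.6% of all rows). The log2 fold change was 0.45 for Hmmr (95% CI -0.04 to 0.93) and 0.54 for Ndc80 (95% CI -0.01 to 1.08), and both intervals hold 0. All 4 genes of the chromosomal passenger complex were lower in Ts1Rhr than in HMGN1_OE, with a median of -0.36. On raw FPKM the median over the members was 0.20, with 46 of 60 above 0, and 0 were called (0% of all rows). There, 10 were higher and 1 lower at an unadjusted p below 0.05 (3.9% and 4.95% of all rows), and 13 lay above every HMGN1_OE library and 1 below (6.89% and 5.99%). With the pro-B scaling the median was 0.38, against 0.25 over all tested genes.

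Other genes of division were counted from lists that hold no member. Over all rows tested, the median log2 fold change in Ts1Rhr against WT was 0.12 on normalised FPKM. There 0.423% of all rows were called higher and 13.2% were higher at an unadjusted p below 0.05. On raw FPKM 4.29% of all rows were called higher. Of 90 further mitosis genes, which include subunits of the anaphase-promoting complex, cohesin and the augmin complex, 0 passed in Ts1Rhr against WT on normalised FPKM, 45 were higher at an unadjusted p below 0.05 and 84 had a log2 fold change above 0, with a median of 0.55. On raw FPKM 22 of them passed, all higher. Of 19 regulators of such promoters, among them the MuvB subunits, B-MYB (Mybl2), Foxm1, E2F factors, retinoblastoma proteins and NF-Y, 0 passed, 16 were above 0 and the median was 0.51, and on raw FPKM 4 passed as higher. Of 36 DNA replication genes, 2 rose, Pola1 by 1.08 and Rfc3 by 1.19 on the log2 scale (limma, adjusted p = 0.0481 for both), 34 were above 0 and the median was 0.61. At an unadjusted p below 0.05, 22 of the 36 were higher, and on raw FPKM 17 of the 36 were called higher. Pola1 encodes the catalytic subunit of the polymerase that starts new strands and Rfc3 a subunit of the clamp loader. In HMGN1_OE against WT the medians of these 3 lists were 0.53, 0.54 and 0.65, against 0.21 over all rows. By limma 0 were called in each list, against 0.0919% of all rows. At an unadjusted p below 0.05, 42, 9 and 22 genes were higher, against 10.9% of all rows. The difference between these lists and the 60 members was not tested, and none of these counts is called particular to mitosis.

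Exons of 20 of the 60 members overlap those of another annotated gene in GENCODE's annotation, and 15 of these partners code for a protein. They include Elovl1 for Cdc20, Gm3550 for Cdc25c, Rccd1 for Prc1, Tnnc2 for Ube2c and 9930104L06Rik for Cdca8, all on the opposite strand. The values of these members may hold reads of the partner.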

How the data were processed

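PolyA RNA from equal numbers of cells was made into TruSeq libraries after 1 µl of ERCC spike-in RNA, diluted 1:1000, had been added, per the labels' protocols. The authors deposited a raw and a normalised table of FPKM, from HISAT, Cufflinks 2.0.0 and mm9 per the submitters' processing notes. How the normalised FPKM were made, beyond a spike-in for per-cell scaling named in the labels' protocols, was not given in any source used here, and its values appear to hold a constant near 0.1. Of 23398 rows, 92 spike-in and 27 date rows (symbols turned into dates) were left out. The tables used here hold no counts, so depth is unknown and the 3 libraries per group limit the precision.

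log2 normalised FPKM as deposited by the authors were fitted with limma 3.58.1 in R 4.3.3 (trended empirical Bayes, group means, all 9 libraries, two-sided, no pairing). P-values were adjusted by Benjamini-Hochberg over the 10878 rows with a mean of at least 1 raw FPKM, with 0.05 as the threshold. The raw table was fitted as log2(FPKM + 0.1), so fold changes of low genes are understated. The script was tested on simulated data. The correlations of same-numbered libraries' deviations did not pair the samples.

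Members, roles, gene lists and markers (pro-B, myeloid, stromal, erythroid, T and NK, plasma) were chosen with earlier results of these data known. Values in every library are given for members called in any comparison and, in each role, for the one with the highest mean and those with the highest and lowest log2 fold change in Ts1Rhr against WT. Alternatives were the raw table, other pseudocounts, filters and scalings, fewer groups, a replicate block and leaving out each library. Exon overlaps come from GENCODE, with no coordinates used.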

Additional observations from a re-analysis of the deposited data

How the results depend on the processing

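Of the 60 mitosis genes, 5 were called in Ts1Rhr against WT by limma, against 0.57% of all rows. The count was 33 on raw FPKM, against 8.85% of all rows. It was 3 with a pseudocount of 1, 6 with a mean of at least 5 raw FPKM and 17 with the same median in every library. It was also 3 with 1 spike-in factor per library, 1 with the same pro-B marker median and 13 with only the groups compared. With no filter it was 0, and 1 row of the whole table was called higher. With the replicate block it was 7, and 15 on raw FPKM with the block. Leaving out 1 library gave 0 to 11 calls. For most of these settings, and for the leave-outs below, the share of all rows called is not given. Those counts show only how the number of calls moved, and not a result about the members. On raw FPKM, an alternative chosen after seeing the data, leaving out 1 library gave 0 to 39, namely 28 without HMGN1_OE replicate 1, 30 without HMGN1_OE replicate 2, 39 without HMGN1_OE replicate 3, 30 without WT replicate 2, 5 without Ts1Rhr replicate 1, and 0 when replicate 2 or 3 of Ts1Rhr or replicate 1 or 3 of WT was left out. The other comparisons had 0 calls in every setting. The median log2 fold change was 0.58 to 0.84 over the leave-outs for Ts1Rhr against WT (0.69 as reported) and 0.23 with the pro-B scaling. For HMGN1_OE against WT it was -0.13 with the pro-B scaling, and on raw FPKM 0.38 without HMGN1_OE replicate 3 and 0.34 without WT replicate 1. For Ts1Rhr against HMGN1_OE it was 0.38 with the pro-B scaling and 0.31 on raw FPKM without HMGN1_OE replicate 3. The sign of the Ts1Rhr against WT log2 fold change turned for 9 named genes. With the pro-B scaling it was -0.077 for Ccnb2, -0.16 for Cdk1, -0.16 for Cenpi, -0.12 for Kif22, -0.17 for Prc1, -0.0069 for Ube2c and -0.29 for Pttg1. Birc5 had 0.10 on raw FPKM, 0.074 with 1 spike-in factor and -0.34 to 0.16 over the leave-outs. Over the leave-outs Bub3 had -0.22 to 0.13 and Pttg1 -0.068 to 0.41. In HMGN1_OE against WT the pro-B scaling gave -0.10 for Ndc80, -0.075 for Hmmr and -0.10 for Birc5. In Ts1Rhr against HMGN1_OE, Ska1 had -0.00068 with 1 spike-in factor and -0.10 to 0.35 over the leave-outs. The pro-B scaling moves all log2 fold changes of a comparison by the same amount, so values closer to 0 than that amount can change sign. The cause of the other changes was not tested.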
